A study of Mus musculus with 4 samples.

Results

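In mouse liver, 1872 stretches of accessible chromatin lay far from any protein-coding gene and were called in every library of the series. They are the constitutive regions far from genes. Overlapping or touching peaks of the 4 lists were first joined, which gave 38853 merged regions. A region was kept when a peak of all 4 libraries overlapped it, when it lay outside every protein-coding gene span, and when the nearest gene end was over 50 kb away. The 1872 regions are 10.6% of the 17581 constitutive regions, those called in all 4 libraries (exact Clopper-Pearson 95% interval 10.2% to 11.1%, for the counting of regions only). Of all merged regions, 45.3% were called in all 4 libraries, a share that the choice of regions used.

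The series measured chromatin accessibility by ATAC-seq in livers of PA and WT mice. The PA group comprised 2 female FVB-background mice with a hypomorphic Pcca-/- genotype, given with the change A138T. Pcca encodes the alpha subunit of propionyl-CoA carboxylase, which converts propionyl-CoA to methylmalonyl-CoA, and its loss causes propionic acidaemia. The WT group comprised 2 female FVB-background mice. All 4 mice were 11 weeks old and ate standard chow, and 20 mg of frozen liver went into each Omni-ATAC library. The deposited lists hold the position of each peak and no read count or score, so the sequencing depth behind a peak is unknown. Frozen whole liver mixes hepatocytes with other cells, and in such bulk material fewer cells of a type and less open chromatin per cell cannot be told apart. Of 20 hepatocyte marker genes, 10 had a constitutive region within 1 kb of a gene end, among them Ttr, Cps1 and Cebpa, against 0 of 16 marker genes of blood, neural, muscle and islet cells. The same share over all protein-coding genes was not computed. The hepatocyte markers were the nearest gene of 0 far regions (0.176% of all constitutive regions). The other markers were nearest to 2 (0.107%, compared with 0.0284% of all constitutive regions), both beside Ptprc.

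Accessible regions far from promoters commonly act as enhancers: transcription factors bind them, displace nucleosomes and contact a promoter through a chromatin loop, often over other genes. Others bind CTCF at domain borders or are promoters of non-coding RNAs. Gene deserts beside developmental regulators are known to hold many such elements, and in the liver enhancers are occupied by FOXA, HNF4A and CEBP factors. The nearest gene is therefore only a landmark, and no region is assigned a target here.

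Of the far regions, 83 (4.43%) held the start of a long non-coding RNA (lncRNA) gene, 85 genes in all, compared with 4.74% of the other constitutive regions. For these regions a sequence could be read, because RefSeq (GRCm38.p6) gives a window from 250 bases before to 50 after each start. The 6 windows below were chosen after their letters were seen, as examples of the CpG-rich and the CpG-poor kind. Capitals mark matches, on either strand, to the motif letters searched: GGGCGG (SP and KLF), CACGTG (E-box), TGANTCA (AP-1), TTGCNNAA (CEBP), TGTTTAC (FOXA), CAAAGTNCA (HNF4A) and CCAAT (NFY). The letters CCGGAAG (ETS) and motifs for NFI and CTCF were searched too and are not in these 6 windows. Where matches overlapped, as in Jpx, the capitals run on. D130051D11Rik (chr15:85634346-85634645, plus strand), Dubr (chr16:50732724-50733023, minus strand) and Jpx (chrX:103493308-103493607, plus strand) have 23, 19 and 27 CpG pairs in the window. Lexis1 (chr4:53218312-53218611, minus strand), Gm30117 (chr17:85928552-85928851, minus strand) and Gm33459 (chr9:74528637-74528936, minus strand) have 4, 2 and 0.
D130051D11Rik: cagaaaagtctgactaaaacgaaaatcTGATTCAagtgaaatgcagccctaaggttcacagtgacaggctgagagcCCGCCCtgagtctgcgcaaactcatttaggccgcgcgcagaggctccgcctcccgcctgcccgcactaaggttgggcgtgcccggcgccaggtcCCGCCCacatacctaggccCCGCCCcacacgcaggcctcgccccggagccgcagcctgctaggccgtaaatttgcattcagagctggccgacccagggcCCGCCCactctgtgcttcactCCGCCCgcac
Dubr: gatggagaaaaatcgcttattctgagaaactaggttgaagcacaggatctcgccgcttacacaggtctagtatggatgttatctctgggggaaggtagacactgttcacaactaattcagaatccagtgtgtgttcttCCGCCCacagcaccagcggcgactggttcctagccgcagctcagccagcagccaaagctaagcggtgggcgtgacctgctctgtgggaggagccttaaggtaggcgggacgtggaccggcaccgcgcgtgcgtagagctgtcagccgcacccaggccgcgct
Jpx: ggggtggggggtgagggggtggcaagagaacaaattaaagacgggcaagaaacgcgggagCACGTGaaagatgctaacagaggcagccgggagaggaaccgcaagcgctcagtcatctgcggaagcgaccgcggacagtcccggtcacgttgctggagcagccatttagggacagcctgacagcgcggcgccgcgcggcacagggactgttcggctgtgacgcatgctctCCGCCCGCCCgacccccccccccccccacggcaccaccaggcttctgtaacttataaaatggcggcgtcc
Lexis1: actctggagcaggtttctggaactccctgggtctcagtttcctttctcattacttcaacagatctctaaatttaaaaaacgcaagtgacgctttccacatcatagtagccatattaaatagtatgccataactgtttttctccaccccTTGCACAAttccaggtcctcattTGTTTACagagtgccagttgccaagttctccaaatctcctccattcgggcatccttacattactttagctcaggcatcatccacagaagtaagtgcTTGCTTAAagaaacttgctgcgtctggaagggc
Gm30117: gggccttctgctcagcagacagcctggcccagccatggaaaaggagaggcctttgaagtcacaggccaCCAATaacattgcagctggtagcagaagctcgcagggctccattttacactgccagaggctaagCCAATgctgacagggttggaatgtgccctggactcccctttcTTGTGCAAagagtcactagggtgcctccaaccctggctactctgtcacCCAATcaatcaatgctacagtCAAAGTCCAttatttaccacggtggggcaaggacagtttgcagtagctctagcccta
Gm33459: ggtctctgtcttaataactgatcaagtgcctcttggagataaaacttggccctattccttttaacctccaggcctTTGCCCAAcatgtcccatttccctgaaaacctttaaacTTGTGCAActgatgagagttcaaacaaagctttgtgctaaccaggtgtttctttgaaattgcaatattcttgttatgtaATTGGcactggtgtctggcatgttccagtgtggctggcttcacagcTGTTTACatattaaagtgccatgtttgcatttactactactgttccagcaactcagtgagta

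Jpx is an activator of the X-inactivation gene Xist, and its start lay in a far region with places 47.8 and 48.5 in the PA lists, against 61.2 and 44.7 in the WT lists. Here and from here on, the place of a region is its rank by line order among the 17581 constitutive regions of a library's list, in percent, so that 0 is the first line and 100 the last; higher in a list means a smaller place. No source used here gives what the lists are ordered by, so a place is a position in a file and not a measured accessibility. The choice of regions used their presence in the lists and not their places. The D130051D11Rik region stood near the head of all lists, at 0.717 and 1.33 in PA and 2.08 and 1.22 in WT. The Dubr region followed at 7.26 and 11.2 in PA, against 9.61 and 19.9 in WT. In none of these 3 CpG-rich regions were the PA and WT places separated.

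Lexis1, a liver lncRNA beside the cholesterol exporter gene Abca1 that is known to act in cholesterol synthesis, had 2 CEBP matches and 1 FOXA match in its window. Its region stood at 44.7 and 56.3 in the PA lists, against 73.9 and 42.9 in the WT lists, which overlap. The Gm33459 region stood at 52.2 and 27.9 in PA, against 65.7 and 35.5 in WT, which overlap too. The Gm30117 region was the one of the 6 whose groups did not overlap, at 42.8 and 23.3 in PA, against 20.9 and 20.4 in WT.

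The far lncRNA windows differed in base composition from lncRNA windows in other constitutive regions. The median CpG observed-to-expected ratio was 0.280 in the 94 far windows, against 0.841 in 813 windows in other constitutive regions and 0.245 in all 11588 lncRNA windows of the table. A ratio over 0.6 was found in 17.0%, 77.1% and 14.0% of those windows. CEBP letters were in 27.7% of the far windows, against 9.72% and 12.0% in the same order of sets. This far share rests on 26 windows from 23 genes in 23 regions, because close starts of 1 gene give separate windows. FOXA letters were in 7.45%, 1.60% and 4.83%, and HNF4A letters in 4.26%, 1.60% and 1.61%. These far shares rest on 7 and 4 windows. HNF1 letters were in 1.06%, 0.123% and 0.181%, with 1 far window. The SP and KLF letters GGGCGG, which are rich in CpG, were in 21.3%, 66.5% and 16.3%, and the ETS letters CCGGAAG in 7.45%, 17.1% and 3.89%. The CCAAT box was about as frequent in each set, in 34.0%, 36.8% and 36.0%. AP-1 letters were in 9.57%, 4.06% and 9.31%, E-box letters in 7.45%, 11.6% and 5.89% and CTCF letters in 3.19%, 4.55% and 2.58%. NFI letters were in 0 far windows, 0 windows of other constitutive regions and 0.0431% of all. A match is only a match of letters within these 300 bases; factor binding was not measured, and the shares are descriptions of the windows without a test.

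**Figure D1:**
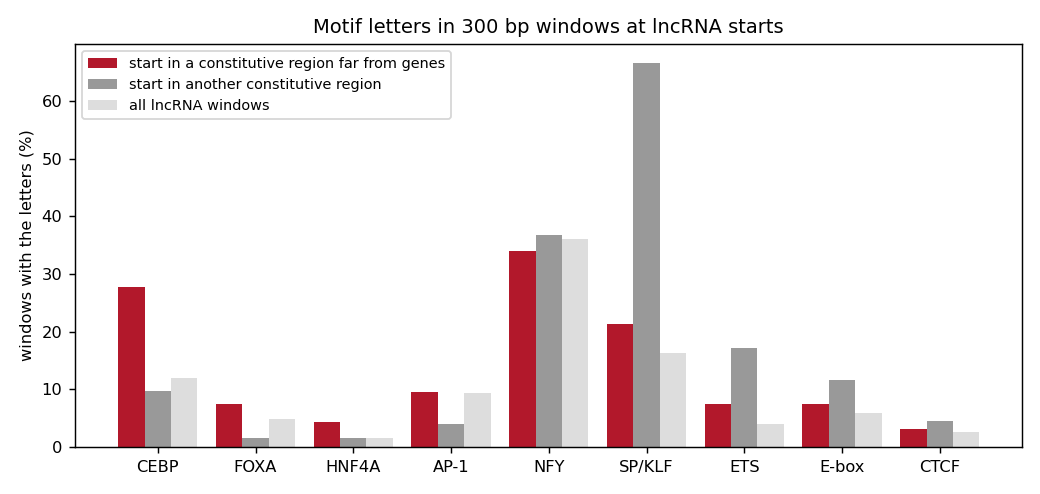
Share of 300-base windows around lncRNA starts that hold the letters of each motif on either strand (y axis, percent), for starts in constitutive regions far from genes (red), starts in other constitutive regions (dark grey) and all lncRNA windows (light grey). CEBP letters stand at 27.7% of far windows, against 9.72% and 12.0% of the others, while the SP and KLF letters are in 21.3% of far windows against 66.5% in other constitutive regions. HNF1 and NFI letters are not drawn.

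The regions with a lncRNA start stood further up the lists than the other 1789 far regions. Their median place was 47.8 and 48.8 in the PA lists and 47.0 and 53.4 in the WT lists, against 71.1 and 65.6 in PA and 61.3 and 70.8 in WT for far regions without one. Both PA places were higher in the list than both WT places in 6 of the 83 (7.23%), and both were lower in 7 (8.43%). Among far regions without a lncRNA start these shares were 11.3% and 17.8%, and among all constitutive regions 15.0% and 14.0%. In the wider annotation, 536 far regions (28.6%) overlapped a non-coding gene or pseudogene and 504 (26.9%) overlapped a lncRNA gene, compared with 23.0% of the constitutive regions between genes at 1 to 50 kb. Outside and over 50 kb from every annotated gene of any kind were 428 far regions (22.9%).

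No far region overlapped a miRNA gene. Of 1005 miRNA hairpins searched, 25 lay within 25 kb of 22 far regions and 17 within 10 kb of 13. Mir30d, 21862 bp from a far region, was not among the 25, so these counts are a minimum. The examples were chosen after these distances were seen. The mature sequences of the miRNAs near some of these regions, from RefSeq (GRCm38.p6), show which share a seed, the bases 2 to 8 that pair with a target and are given in capitals.
mmu-miR-17-5p: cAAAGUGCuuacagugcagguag
mmu-miR-20a-5p: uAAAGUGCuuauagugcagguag
mmu-miR-18a-5p: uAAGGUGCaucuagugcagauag
mmu-miR-19a-3p: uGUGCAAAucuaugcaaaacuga
mmu-miR-19b-3p: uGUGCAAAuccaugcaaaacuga
mmu-miR-92a-3p: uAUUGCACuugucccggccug
mmu-miR-221-3p: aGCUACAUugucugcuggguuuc
mmu-miR-222-3p: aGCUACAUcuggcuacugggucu
mmu-miR-30a-5p: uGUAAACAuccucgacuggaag
mmu-miR-30c-5p: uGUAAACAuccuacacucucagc

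The miR-17-92 cluster, a polycistron of growth-promoting miRNAs, began 2618 bp from a far region at chr14:115040654-115041053, between the genes Slitrk5 and Gpc5. Within the cluster, miR-17-5p and miR-20a-5p share the seed AAAGUGC, and miR-19a-3p and miR-19b-3p share GUGCAAA. The region stood at 6.80 and 6.87 in the PA lists, against 3.07 and 5.19 in the WT lists, so it was near the head of all lists and slightly lower in both PA lists. Mir221 and Mir222, whose products share the seed GCUACAU, lay 6516 and 7115 bp from a far region on the X chromosome. That region stood at 95.4 and 80.4 in PA, against 64.5 and 81.6 in WT, and the groups overlapped. Mir30a, whose 5p product shares the seed GUAAACA with miR-30c-5p, lay 15.9 kb from chr1:23255939-23256338 and 7.50 kb from a second far region. The first of these stood at 0.563 and 0.239 in PA, against 0.279 and 0.364 in WT, and the second near the foot, at 81.5 and 88.5 in PA against 74.7 and 92.8 in WT.

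The far regions resembled all constitutive regions in size and in how closely the peaks of the libraries lined up. A merged region had a median length of 445 bp (range 279 to 1012 bp), compared with 443 bp over all constitutive regions, and most peaks were listed at 400 bp. No library had more than 1 peak in any of them. The centres of the 4 peaks of a region spanned a median of 45 bp and at most 612 bp, compared with a median of 43 bp over all constitutive regions. Peak centres differed by a median of 24 bp between libraries of 1 genotype and by 24 bp between genotypes.

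From a protein-coding gene end the far regions were a median of 123 kb away, with quartiles of 74.4 and 235 kb and a maximum of 2137 kb. By distance, 730 lay at 50 to 100 kb, 574 at 100 to 200 kb, 467 at 200 to 500 kb, 74 at 500 to 1000 kb and 27 beyond that. The 3 regions just inside the limit were 50005, 50072 and 50124 bp from the ends of Erg, Nr5a2 and Kbtbd8. The 3 constitutive intergenic regions just outside it were 49976, 49958 and 49854 bp from Egfr, Ipo5 and Mrtfb.

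Being far from genes went with being called in fewer libraries. Far position was found for 18.3% of the merged regions called in 1 library, 17.3% of those called in 2, 17.1% in 3 and 10.6% in all 4. Of the 5638 far merged regions of any call, 33.2% were constitutive, 239 (4.24%) were called in both PA and neither WT library and 130 (2.306%) in both WT and neither PA library. Over all merged regions these restricted calls made up 3.38% and 1.98%. Far peaks were 12.5% and 13.5% of the PA lists and 12.7% and 13.2% of the WT lists.

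Within each library, the far regions stood lower in the list than the rest of the constitutive regions. Their median place was 70.1 and 65.0 in PA and 61.1 and 69.8 in WT, against 47.2 and 48.1 in PA and 48.6 and 47.4 in WT for the other constitutive regions. The difference was 23.0 and 17.0 points in PA and 12.6 and 22.4 points in WT, with a mean of 18.7 ± 4.91 (SD, n = 4). All 4 libraries had the same direction, and the exact two-sided sign-flip permutation test gave p = 0.13, the smallest that 4 libraries allow. In all 4 lists, 18 far regions (0.962%) were in the first 10%, compared with 7.002% of all constitutive regions.

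Against intergenic constitutive regions at 1 to 50 kb from a gene end, the far regions were hardly set apart. The difference in median place was 2.66 and 3.66 points in PA and −1.58 and 5.33 points in WT, with a mean of 2.52 ± 2.95 (SD, n = 4; exact two-sided sign-flip permutation p = 0.25). The direction was not shared by WT 1, and the mean was smaller than the spread between libraries. Among the far regions themselves, those at greater distance tended to stand lower. At 50 to 100 kb the median place was 67.5 and 62.5 in PA and 60.8 and 64.6 in WT. Beyond 1000 kb it was 85.4 and 79.3 in PA and 70.0 and 79.6 in WT, for 27 regions.

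**Figure D2:**
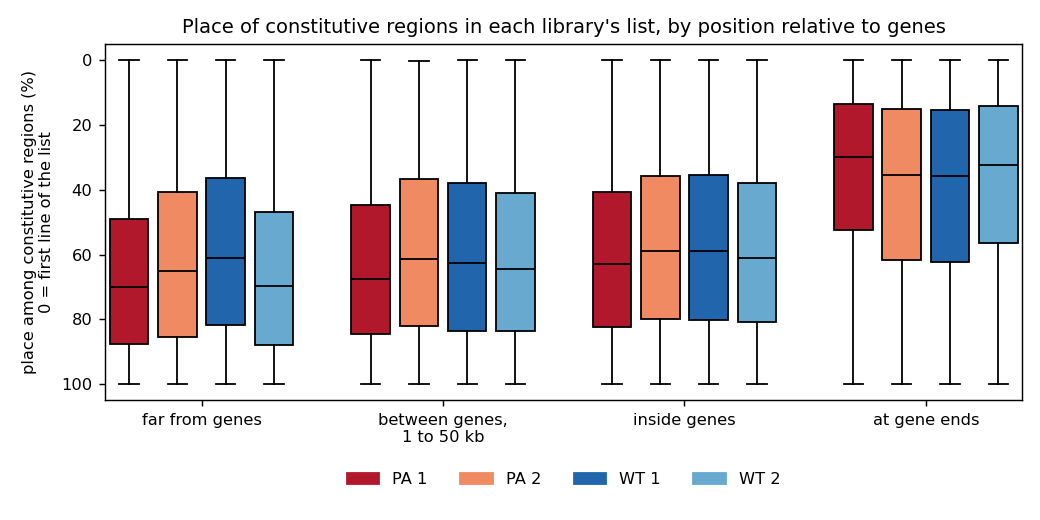
Place of constitutive regions in each library's list (y axis, percent, 0 is the first line and is drawn at the top) for 4 classes of position relative to protein-coding genes, with PA 1, PA 2, WT 1 and WT 2 side by side. Boxes span the quartiles with the median as a line, and whiskers run over all regions. Far regions have medians of 70.1, 65.0, 61.1 and 69.8, close to the intergenic regions at 1 to 50 kb and below those at gene ends.

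Gene deserts held the far regions unevenly. Between protein-coding genes on the autosomes and the X chromosome, 940.9 Mb lay over 50 kb from a gene, with 1.98 far regions per Mb. Of 2768 gaps longer than 100 kb, 839 (30.3%) held at least 1. The share of gaps with a far region was 13.1% at 0.1 to 0.2 Mb and 61.4% above 2 Mb. Density ran the other way: 4.56 per Mb in the first of these classes and 0.544 per Mb in the last. Of 281 gaps over 1 Mb, 122 held none.

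**Figure D3:**
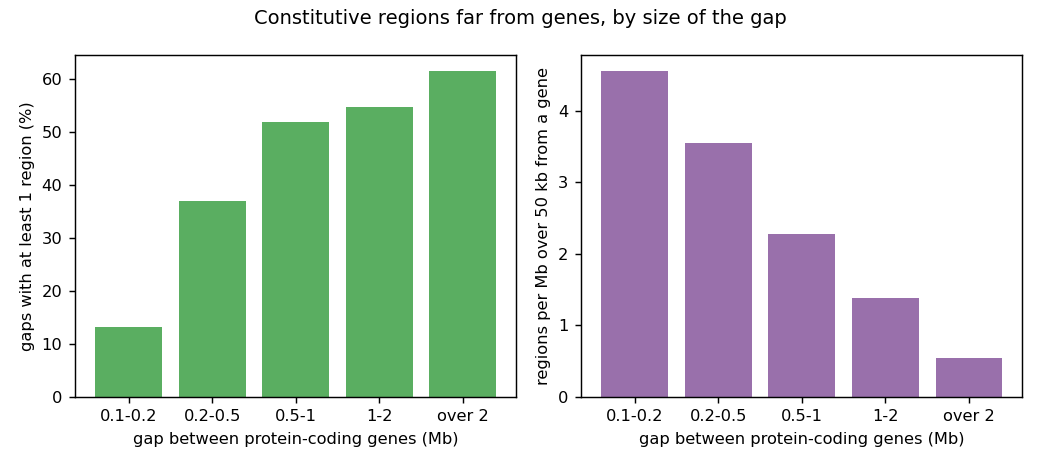
Constitutive far regions by the size of the gap between neighbouring protein-coding genes (x axis, Mb). Left, percent of gaps that hold at least 1 region, 13.1% in the shortest class and 61.4% in the longest. Right, regions per Mb of sequence over 50 kb from a gene, 4.56 in the shortest class and 0.544 in the longest.

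By chromosome, the far regions were most numerous on chromosomes 3 (160) and 13 (156) and least so on 19 (18). They made up 17.5% of the constitutive regions of chromosome 13 and 3.90% of those of chromosome 19. Per Mb of far sequence there were 3.45 on chromosome 13 and 0.667 on the X chromosome, which held 52.

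In clusters, 946 far regions (50.5%) had another within 50 kb. The longest runs, with every neighbour at most 50 kb away, had 7 regions, and there were 3 such runs: between Bcl6 and Lpp, between Myc and Gsdmc, and between Bod1l and Gm46911. Each of the 7 regions of the first lay nearer to Lpp, a gene of cell adhesion, than to Bcl6. Bcl6 encodes a transcriptional repressor that is sex-biased in mouse liver. The interval from Bcl6 to Lpp held 12 far regions in 404 kb, with median places of 82.3 and 64.1 in PA and 77.9 and 74.5 in WT. PA and WT places overlapped in all but 3 of the 12, compared with 71.0% overlapping among all constitutive regions, and the 3 were separated by at most 3.91 points.

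The interval with the most far regions, 19 in 1786 kb, ran from Myc to Gsdmc. Myc is a growth-promoting transcription factor, and Pvt1, a lncRNA gene, lies beside it. Median places were 52.4 and 56.7 in the PA lists and 56.2 and 56.4 in the WT lists, and 3 of the regions stood higher and 4 lower in both PA lists, compared with 15.0% and 14.0% of all constitutive regions. By place in percent of list length the order turned, with 5 higher and 3 lower. On that scale all constitutive regions had smaller median places in both PA lists than in both WT lists. The best placed, at chr15:62257954-62258377, stood at 10.4 and 12.8 in PA, against 6.75 and 17.7 in WT. Past the gene Jun, an AP-1 subunit, 12 far regions lay before Fggy. One of them, at chr4:95161250-95161662, stood at 4.41 and 3.85 in PA, against 5.08 and 2.497 in WT.

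The nearest genes included many regulators of development. From a list of 93 developmental transcription factors, 42 were the nearest protein-coding gene of 113 far regions (6.04%), compared with 1.27% of all constitutive regions and 5.29% of far regions of any call. Myc was nearest to 16, Sall1 (a zinc finger factor) to 7 and Klf4 to 6. Hes1, the Notch target, and Id2, an inhibitor of helix-loop-helix factors, were nearest to 5 each. Of the 113, 15 (13.3%) stood higher in both PA lists and 22 (19.5%) lower, compared with 15.0% and 14.0% of all constitutive regions and 11.2% and 17.4% of all far regions. Klf4 is a zinc finger factor of stem cells and epithelia. Of its 6 far regions, 2 stood higher and 1 lower in both PA lists. The region at chr4:55938319-55938723, 406 kb from Klf4, stood at 71.4 and 71.1 in PA, against 88.0 and 90.7 in WT.

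Of 41 hepatocyte transcription factor genes, 11 were nearest to 36 far regions (1.92%, compared with 0.734% of all constitutive regions and 1.84% of far regions of any call). Foxa2, a factor that opens chromatin at liver genes, led with 8. Among its neighbours the best placed, at chr2:147942555-147943014, stood at 36.8 and 14.4 in the PA lists, against 28.9 and 19.5 in the WT lists, which overlap. Cebpb, a factor of the acute phase and of gluconeogenesis, had 2 far regions, both lower in both PA lists. The one at chr2:167759945-167760382 stood at 28.4 and 29.4 in PA, against 15.5 and 19.4 in WT. The other, at chr2:167764988-167765503, stood at 18.5 and 21.2 in PA, against 14.1 and 7.04 in WT. Among the 36, 4 (11.1%) were higher and 5 (13.9%) lower in both PA lists, compared with 15.0% and 14.0% of all constitutive regions.

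Genes of liver metabolism and plasma proteins were nearest to 34 far regions (1.82%, compared with 1.02% of all constitutive regions and 1.60% of far regions of any call). Of these, 5 (14.7%) stood higher and 8 (23.5%) lower in both PA lists, compared with 15.0% and 14.0% of all constitutive regions. Irs2, which couples the insulin receptor to its downstream kinases, was nearest to 6. Of these 6, 0 stood higher and 1 lower in both PA lists. That one, at chr8:10891942-10892371, stood at 60.3 and 68.9 in PA, against 45.4 and 48.4 in WT. Both regions nearest to Acsl1, a long-chain acyl-CoA synthetase, were lower in both PA lists. The one at chr8:46409241-46409708 stood at 75.1 and 71.4 in PA, against 48.4 and 51.0 in WT. Ppargc1a encodes a coactivator of gluconeogenic and mitochondrial genes. Of the 4 far regions nearest to it, 1 stood higher and 0 lower in both PA lists. That region, 414 kb away at chr5:51039626-51040056, stood at 35.2 and 46.6 in PA, against 50.4 and 73.7 in WT.

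Secreted growth factors and morphogens were nearest to 33 far regions (1.76%, compared with 0.739% of all constitutive regions and 1.97% of far regions of any call). In both PA lists, 3 (9.09%) were higher and 2 (6.06%) lower, compared with 15.0% and 14.0% of all constitutive regions. Areg, an EGF receptor ligand, had 1 of the 3, which stood at 74.0 and 69.2 in PA, against 88.8 and 81.9 in WT. Circadian clock and D-box genes were nearest to 2 far regions (0.107%, compared with 0.262% of all constitutive regions and 0.177% of far regions of any call). The region near Npas2, a partner of BMAL1, stood at 86.1 and 84.1 in PA, against 65.2 and 76.8 in WT.

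At the head of the lists, a far region beside Axin2 (chr11:109011731-109012138) was line 2 and line 1 of the PA lists, against line 6 and line 3 of the WT lists. One at chr3:5860471-5860870, 282 kb from Pex2, was line 4 and 5 in PA, against 8 and 5 in WT. The 10 best placed far regions by mean place also included 1 beside Mycn and 1 that overlapped a tRNA gene near Atp10a. The tRNA region stood at 4.72 and 1.89 in PA, against 0.802 and 1.71 in WT. A region between Zfat and Khdrbs3, at chr15:68363151-68363649, stood at 0.722 and 1.08 in PA, against 1.22 and 1.31 in WT, and lay 21.9 kb from Mir30d.

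The region farthest from a protein-coding gene lay 2137 kb away, between Cntnap5b and Cdh20 (chr1:102628058-102628469). It stood at 50.03 and 58.6 in the PA lists, against 77.8 and 66.8 in the WT lists, higher in both PA lists. A region 1642 kb from Pcdh18, a protocadherin gene, stood near the foot at 94.0 and 99.95 in PA, against 91.4 and 97.7 in WT. Of the 10 farthest, 4 lay between Tenm2, a teneurin gene of neuronal contacts, and Mat2b, the regulatory subunit gene of methionine adenosyltransferase, and the PA and WT places of all 4 overlapped.

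Near Efnb2, an ephrin ligand, a region at chr8:7060263-7060673 lay 1557 kb away and stood at 39.6 and 44.0 in PA, against 11.5 and 28.0 in WT. Its neighbour at chr8:7092776-7093189 stood at 98.4 and 85.4 in PA, against 41.9 and 59.0 in WT. In the same interval, on the side of the bile acid transporter gene Slc10a2, a region at chr8:6604330-6604834 stood at 98.6 and 98.5 in PA, against 95.3 and 97.8 in WT. All 3 were lower in both PA lists, the last by 0.671 points. The interval held 5 far regions, of which these 3 stood lower and 0 higher. By place in percent of list length 2 were lower and 1 higher, and the last of the 3 overlapped. Over all constitutive regions 15.0% stood higher and 14.0% lower in both PA lists, and over all far regions 11.2% and 17.4%.

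Between PA and WT, the places of most far regions overlapped. Both PA places were higher in the list than both WT places for 209 far regions (11.2%; 15.0% of all constitutive regions), and both were lower for 326 (17.4%; 14.0% of all constitutive regions). The remaining 1337 (71.4%) overlapped. With a gap of at least 10 points between the nearest PA and WT places, 37 were higher (1.98%; 1.50% of all) and 79 lower (4.22%; 2.10% of all). More lower than higher regions were also found in other classes away from gene ends. Intergenic constitutive regions at 1 to 50 kb had 13.8% higher and 15.3% lower, and those inside genes 14.4% and 16.5%. At gene ends the shares were 16.8% and 11.2%. With the gap, 63 were higher and 77 lower of 2914 intergenic, 93 and 154 of 5010 inside genes, and 71 and 60 of 7785 at gene ends. The counts of far regions rest on single libraries and on the scale. Leaving out a library raised the counts among all constitutive regions too, since fewer places then had to be separated, and left 1937 to 2242 far regions. Without PA 1, 671 of them were higher (29.9%; 31.0% of all) and 721 lower (32.2%; 31.6% of all). Without PA 2, 505 were higher (26.1%; 38.6% of all) and 872 lower (45.0%; 33.5% of all). Without WT 2, 402 were higher (19.7%; 34.7% of all) and 937 lower (45.9%; 29.9% of all). Without WT 1 the order turned, with 690 higher (32.1%; 28.6% of all) and 551 lower (25.6%; 29.7% of all). By place in percent of each list's length it turned too, with 315 higher and 193 lower. The shares over all constitutive regions are not given on that scale. The median place of all constitutive regions on it was 35.9 and 32.4 in PA and 36.7 and 36.9 in WT, so they too stood higher in PA.

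As a set, the far regions had a mean of the library medians of 67.6 ± 3.61 in PA and 65.4 ± 6.11 in WT (SD, n = 2 each). The difference of 2.15 points was smaller than the spread between libraries of 1 genotype (exact two-sided permutation p = 0.667, where 0.33 is the smallest possible).

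**Figure D4:**
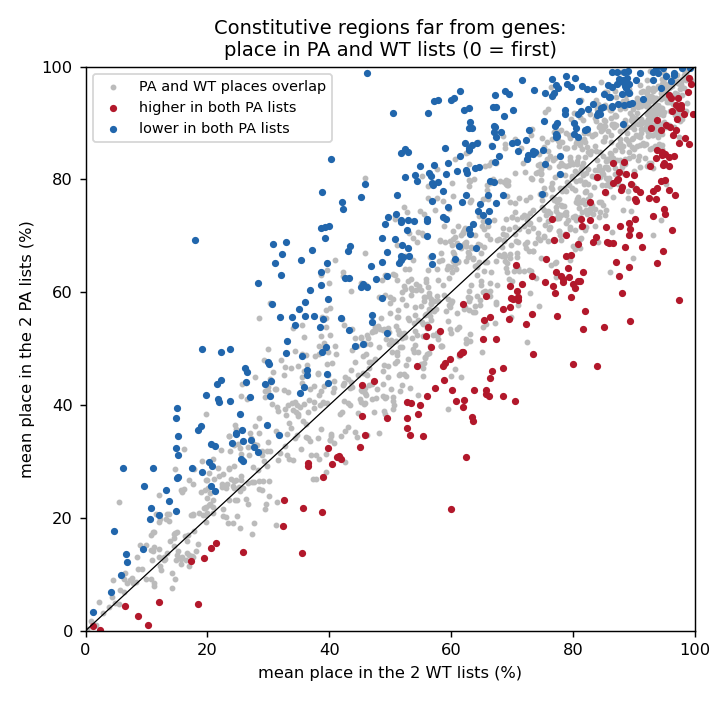
Mean place of each constitutive far region in the 2 PA lists (y axis, percent) against that in the 2 WT lists (x axis, percent), with 0 as the first line. Red points are the 209 regions placed higher in both PA lists and blue points the 326 placed lower. The 1337 whose places overlap are grey. The black diagonal marks equal means, and some grey points lie well off it.

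The far regions with the widest gap in the PA direction were chosen by that gap, so their values are a description. Beyond Myc, chr15:62500919-62501346 stood at 60.5 and 56.7 in PA, against 98.4 and 96.3 in WT. Next came a region 223 kb from Sox9, at chr11:113010922-113011377, at 46.9 and 47.1 in PA, against 85.3 and 82.6 in WT. Near Bbs10, a chaperonin-like gene of Bardet-Biedl syndrome, a region at chr10:111364201-111364615 stood at 44.9 and 38.5 in PA, against 69.2 and 67.9 in WT. In the other direction the widest gap was between Sox11 and Dcdc2c, at chr12:27941026-27941469, at 99.2 and 98.4 in PA, against 38.5 and 53.8 in WT. A region nearest to 1600014C23Rik, with Vegfa on the other side, stood at 77.1 and 74.9 in PA, against 43.7 and 40.6 in WT. The region near Tshz2, at chr2:169351543-169351958, stood at 78.9 and 74.7 in PA, against 46.1 and 44.3 in WT.

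Among intervals with at least 4 far regions (141 of them), more than 50% of the regions stood higher in both PA lists in 5 and lower in both in 5. The interval from Sox9 to the zinc transporter gene Slc39a11 had 7 far regions in 457 kb, of which 6 stood higher in both PA lists and 0 lower. Over all constitutive regions 15.0% stood higher and 14.0% lower, and over all far regions 11.2% and 17.4%. Sox9 is a transcription factor of bile duct and cartilage cells. Median places there were 46.9 and 47.1 in PA and 81.9 and 82.6 in WT, and the gap was at least 10 points in 3 of the regions. Such a gap in this direction was found for 1.50% of all constitutive regions and 1.98% of all far regions. The next best separated were chr11:113132420-113132867, at 53.2 and 54.7 in PA against 81.9 and 88.2 in WT, and chr11:113165103-113165583, at 40.6 and 33.9 in PA against 65.3 and 61.9 in WT. The overlapping one, at chr11:112938052-112938478, stood at 90.2 and 97.5 in PA, against 94.8 and 96.9 in WT. By place in percent of list length, all 7 were higher in both PA lists. On that scale the median of all constitutive regions was also smaller in PA, 35.9 and 32.4 against 36.7 and 36.9 in WT.

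Between Pfn2, the gene of an actin-binding profilin, and Tsc22d2, 4 of the 6 far regions stood lower in both PA lists and 0 higher. By place in percent of list length 3 were lower and 0 higher. The region at chr3:58295772-58296204 stood at 61.05 and 50.02 in PA, against 32.4 and 31.5 in WT. At chr3:58206914-58207398 the places were 55.3 and 60.6 in PA, against 21.2 and 39.95 in WT. The neighbouring one at chr3:58235217-58235617 stood at 27.8 and 23.4 in PA, against 19.2 and 21.8 in WT, a gap of 1.59 points. Further examples held mixed directions. Between Rtl1, an imprinted retrotransposon-derived gene, and Dio3, whose enzyme inactivates thyroid hormone, 2 of 10 far regions stood higher and 4 lower in both PA lists, and 2 higher and 1 lower by percent of list length. The one nearest Rtl1, at chr12:109798835-109799285, stood at 68.0 and 41.9 in PA, against 86.5 and 92.2 in WT. Another, at chr12:110059261-110059708, stood at 88.5 and 54.4 in PA, against 33.4 and 43.8 in WT. Between Pcdh17 and Diaph3, 4 of 5 were lower in both PA lists, and 2 of 5 by percent of list length. Lower on both scales was chr14:86484230-86484707, at 61.4 and 73.6 in PA, against 26.3 and 48.2 in WT. For comparison with each of these intervals, 15.0% of all constitutive regions stood higher and 14.0% lower in both PA lists. Among all far regions the shares were 11.2% and 17.4%. These intervals were chosen after their places were seen, and no test was made of them.

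**Figure D5:**
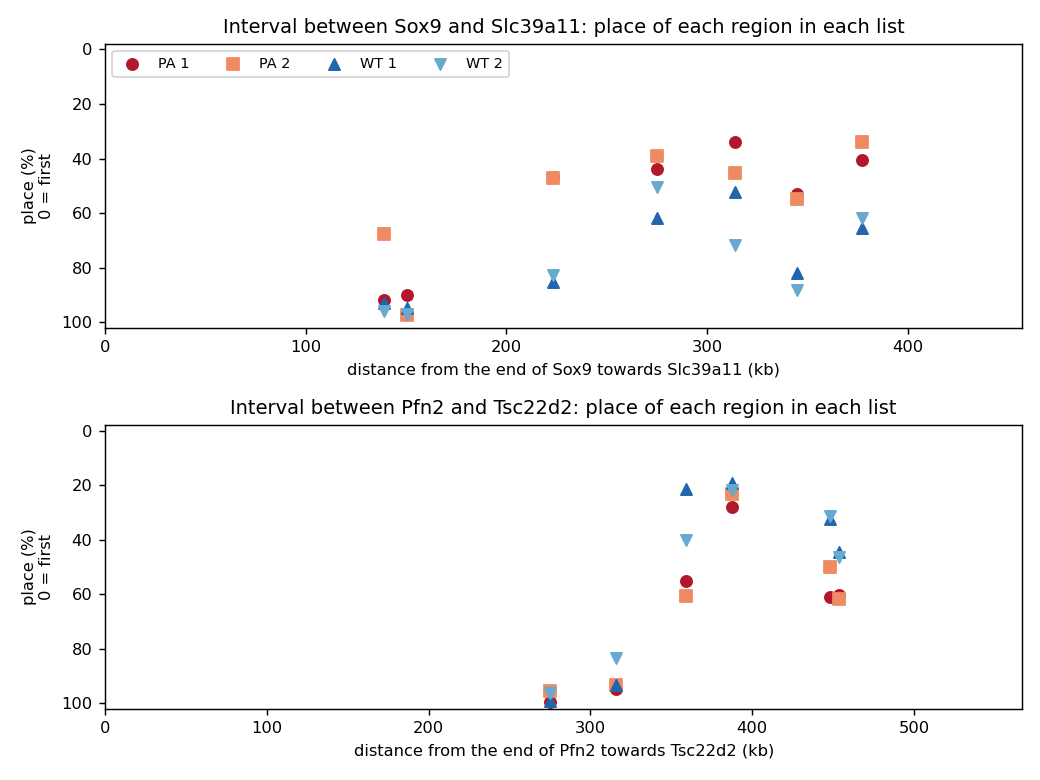
Place of each constitutive far region (y axis, percent, 0 is the first line and is drawn at the top) along the interval between Sox9 and Slc39a11 (above) and between Pfn2 and Tsc22d2 (below). The x axis gives the distance in kb from the first-named gene, and each symbol is 1 library, in red and orange for PA and in blue for WT. In the first interval 6 of 7 regions have both PA places higher in the list, and in the second 4 of 6 have both lower. Over all constitutive regions these shares are 15.0% and 14.0%.

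Regions restricted to 1 genotype were not common beside the far regions. Within 10 kb, 35 (1.87%) had a region called in both PA and neither WT library, compared with 1.47% of all constitutive regions. Another 36 (1.92%) had one called in both WT and neither PA library, compared with 1.06%. Within 50 kb the shares were 9.24% for PA and 6.30% for WT, compared with 8.71% and 6.001% of all constitutive regions.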

How the data were processed

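ATAC-seq peak lists of 4 mouse liver libraries were used, 2 PA and 2 WT, which the series describes as biological replicates. The authors deposited 1 list per library with the chromosome, start and end of each peak and no other value, so the number of reads behind a peak is unknown and no interval from depth can be given. The submitters' processing notes name the builds GRCm38 and mm10 and HOMER 4.10, bedtools 2.31.0, Bowtie2 2.5.1, cutadapt 3.5, SAMtools 1.17 and R 4.1.2, without roles. No source used here gives the peak caller, its threshold or the order of the lines. The usual peak is 400 bp long, and a fixed length hides differences in width.

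Peaks were merged and set against the 21631 protein-coding genes of RefSeq (GRCm38.p6) on chromosomes 1 to 19 and X with Python 3.11.15, pandas 2.3.3, numpy 2.4.6 and scipy 1.17.1, and the steps were checked on simulated data. The rank of a region's first peak line in each list gave its place. Libraries, not regions, were the replicates of each test. The regions named are the farthest, the best placed and the most separated ones, those in the longest runs, those beside listed genes, those beside the 50 kb limit and those in non-coding genes; members outside these rules are said to be chosen after their values were seen. Beside the listed genes, most regions given with places are separated ones, whereas the places of 71.4% of far regions overlapped. The regions and the gene lists were chosen with earlier results of these data known. Alternatives for distance, annotation, list length, overlap, place, pairing and left-out libraries were tried. Sequences come from RefSeq windows only.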

Additional observations from a re-analysis of the deposited data

How the results depend on the processing

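The far regions stood lower in the lists than other constitutive regions under every alternative run, by 15.4 to 21.3 points, with 2.52 points against intergenic regions at 1 to 50 kb. Their number depended on the definition of far: 2686 (15.3% of constitutive regions) at over 25 kb, 1142 (6.50%) at over 100 kb and 428 (2.43%) when every annotated gene was avoided. Equal list lengths gave 1778 and an overlap of 200 bp gave 1801. Without 1 library in turn the number was 1937 to 2242 and the share 10.7% to 11.4%.

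The direction between genotypes was not stable. The PA minus WT difference in median place, 2.15 points, was −1.67 by percent of list length and −1.88 to 6.31 when 1 library was left out, negative without WT 1. By percent of list length, all constitutive regions also had smaller medians in PA, 35.9 and 32.4, than in WT, 36.7 and 36.9. PA 2 had the longest list, with 29765 peaks. The counts higher and lower in both PA lists, 209 and 326, were 128 and 202 at over 100 kb, 315 and 193 by percent of list length, and 37 and 79 with a gap of at least 10 points. Of all constitutive regions, 15.0% were higher and 14.0% lower at either distance, and 1.50% and 2.10% with that gap. The counts were 402 to 690 and 551 to 937 without 1 library in turn, where fewer places have to be separated. With replicate numbers as a block, which asks for fewer comparisons per region, the counts were 346 and 468, and the difference in median place stayed 2.15 points. The deviations of same-numbered libraries correlated at −0.135, so nothing shows that the numbers pair the samples. Crossed numbers, an alternative chosen after seeing the data, gave 345 and 578. The shares of all constitutive regions with block or crossed numbers were not computed, so these counts say nothing particular to far regions. The cause of the other changes was not tested. With 2 libraries a genotype no exact test can pass 0.05, and without read counts depth cannot be weighed.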
